A study of Homo sapiens with 18 samples.

Results

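Cytosolic ribosomal protein genes, which encode the proteins of the large and the small subunit of the ribosome, were examined in PANC-1 cells, an established epithelial line from a human pancreatic ductal carcinoma. The members were taken by symbol: RPL or RPS with a number and an optional A, X or L, together with RPLP0, RPLP1, RPLP2 and RPSA, without RPL7L1, and a mean normalized count of 10 or more was required in both deposited tables. Of 26485 genes listed, 81 names matched and 79 reached this minimum, 47 of the large and 32 of the small subunit. RPL10L was at 0 in both tables and RPL3L had means of 0.914 and 0.236 normalized counts, so neither was tested. The first experiment compared 72 h of PKR knockdown by either of 2 siRNAs, PKR siRNA 1 and PKR siRNA 2, with a control siRNA. PKR is the kinase encoded by EIF2AK2, which senses double-stranded RNA and phosphorylates the initiation factor eIF2. In the second experiment, labelled as another run, the cells received DMSO, 400 nM C16 or 800 nM C16 for 72 h. C16 is a small-molecule inhibitor of PKR and DMSO its solvent. Each of the 6 groups had 3 libraries of poly(A) RNA, and the sources used here do not say whether these came from separate cultures, so p-values describe the spread between libraries.

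The ribosome reads mRNA on the small subunit and joins amino acids on the large subunit, and each ribosome holds its proteins in fixed proportion. The mRNAs of these proteins are known for a terminal oligopyrimidine tract, a C followed by a run of pyrimidines at the first base, through which mTOR and LARP1 set their translation and stability together. Proteins made without a partner are degraded, and RPL5 and RPL11, when free of ribosomes, bind MDM2 and so stabilize p53.

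Reads on genes numbered 1512940 to 1873906 per library in the siRNA experiment and 894145 to 1474308 in the C16 experiment. EIF2AK2, the targeted gene, fell from 97.4 ± 5.21 normalized counts in the control to 11.1 ± 2.19 under PKR siRNA 1 and 8.65 ± 0.726 under PKR siRNA 2 (mean ± SD, n = 3). Without knockdown, in the C16 experiment, it had 49.8 ± 4.20 normalized counts with DMSO, 42.5 ± 3.26 with 400 nM and 49.9 ± 1.38 with 800 nM C16. The epithelial markers KRT8, KRT18 and KRT19 were high in all libraries, whereas the leukocyte markers PTPRC and CD3E and the fibroblast markers COL1A2 and DCN were at 0 in all of them. All 6 epithelial markers were detected, but KRT7, EPCAM and CDH1 had lower mean normalized counts than the fibroblast marker COL1A1 in both experiments. In the C16 experiment KRT7 did not reach the minimum mean of 10. The summed normalized counts of the 6 epithelial markers moved with the treatments. They were 5358 to 5451 in the control libraries, 3052 to 3280 under PKR siRNA 1 and 9586 to 10230 under PKR siRNA 2. They went from 7171 to 7572 with DMSO, 6033 to 6544 with 400 nM and 5172 to 5685 with 800 nM C16. The 5 fibroblast markers summed to 23.6 to 162 normalized counts, nearly all from COL1A1, and the 4 leukocyte markers to 0 to 6.09. The part of these markers in the results was not tested. The third DMSO library stood apart from the other DMSO libraries, since its counts over all genes differed from theirs by 1.57 and 1.34 (chi-square divided by degrees of freedom), against at most 1.30 between other replicates.

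Member mRNAs were abundant. The members together took 4.76%, 4.63% and 4.85% of the normalized counts in the control siRNA libraries, and 5.89%, 5.61% and 5.18% in the DMSO libraries. Per kilobase of annotated exon, the median member had 846 normalized counts with control siRNA, against 21.9 for all 10593 genes tested in that table, and 77 of the 79 members lay above that all-gene median. The middle of the members ran from 468 to 1444 normalized counts per kilobase (quartiles). The median level per kilobase was 962 for large subunit members and 810 for small subunit members. Levels of single members were reproducible, with a median coefficient of variation within groups of 4.49% in the siRNA table, where counting alone gives 3.60%, and of 6.69% in the C16 table, where counting gives 4.30%.

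**Figure D1:**
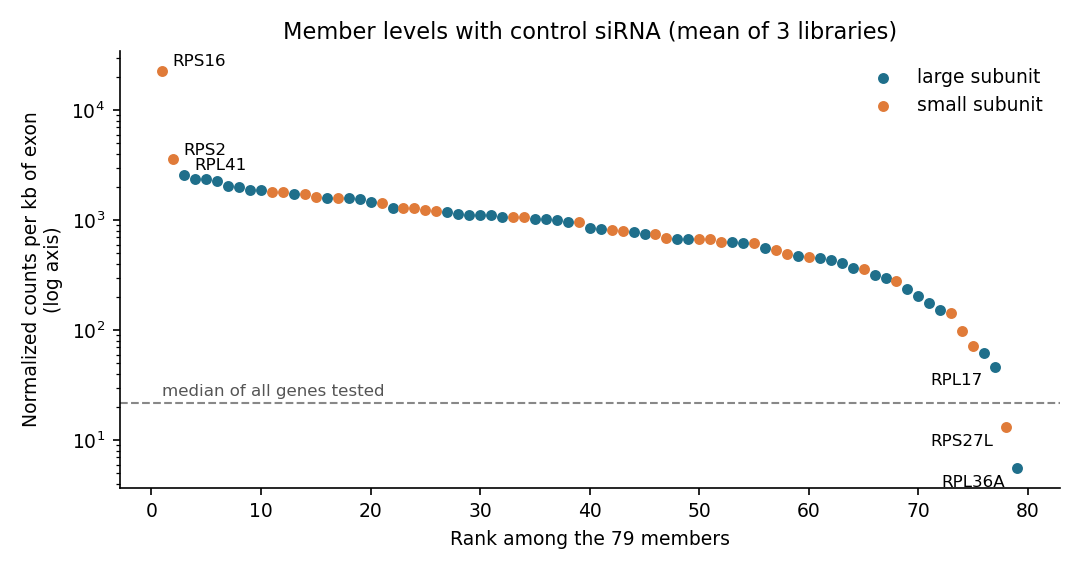
Normalized counts per kilobase of exon (log axis) of the 79 members with control siRNA, ordered from high to low and coloured by subunit. RPS16 stands above all other members, RPL36A, RPS27L and RPL17 lie at the bottom, and the dashed line marks the median of all genes tested, 21.9.

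The most abundant members per kilobase were RPS16 (22869 normalized counts per kilobase with control siRNA), RPS2 (3586) and RPL41 (2602). RPS16, a small subunit protein whose tail reaches the P-site tRNA, lies at chr19:39433207-39435978 (hg38, minus strand) and had the highest level per kilobase of all genes tested. It supplied 16.4% ± 0.191 of the summed member counts with control siRNA and 17.5% ± 0.0934 with DMSO (SD, n = 3 each). The genes around it were high as well. Of 17 genes tested in the siRNA table within 500000 bases on either side, 12 lay above the 90th percentile of all genes per kilobase with control siRNA, and their median stood at percentile 96.5. With DMSO, in the other table, 13 of 18 did so. Of these neighbours, FBL, the methyltransferase of box C/D small nucleolar particles, had 5358 normalized counts per kilobase with control siRNA, PAF1 of the polymerase-associated PAF complex had 1385 and the elongation factor gene SUPT5H had 1179. The copy number of this region was not measured, and its part in these levels was not tested.

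The lowest members per kilobase were RPL36A (5.61 normalized counts per kilobase with control siRNA), RPS27L (13.2) and RPL17 (46.7). For some members the level is uncertain. Exons of RPS10 (62.5%), RPL17 (59.7%) and RPL36A (15.6%) are shared on the same strand with the readthrough genes RPS10-NUDT3, RPL17-C18orf32 and RPL36A-HNRNPH2, and 42.7% of the exon bases of RPL10 lie opposite DNASE1L1. In all, 13 members overlap another listed gene, and the sources used here do not say whether counting used strand. RPL21, RPS9 and RPS18 are listed on more than 1 chromosome or scaffold, so their exon length holds several copies and their level per kilobase is understated. Ribosomal protein genes also have many processed copies in the genome. Of the 79 members, 65 had at least 1 stretch of 75 coding bases, the read length, with an exact copy elsewhere in hg38, and in 26 of them this held for most such stretches. In RPL21, RPL36A, RPL39, RPL41, RPS26, RPS27 and RPS28 it held for 100% of them.

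Most members with a listed start share a feature that their names do not carry, the start of their mRNA. Of the 63 members with a start in the RefSeq table used here (GRCh38.p14), 46 (73.0%) had at least 1 start with C as its first base and pyrimidines at the next 4, on the strand of the gene, against 4.98% of 27242 other genes and 8.70% of 69 mitochondrial ribosomal protein genes. The share was 73.7% for the large subunit (28 of 38) and 72.0% for the small subunit (18 of 25). Stretches of 30 bases are shown here for the most abundant member, for both members of the RPS27 pair, of which RPS27L has no such start, and for RPS12 and RPL10, which rose with PKR siRNA 2. Each begins 8 bases before the RefSeq start, and capitals mark the unbroken pyrimidine run from the first transcribed base. RPS27L has G as its first base and no such run.
RPS16 (chr19:39435928-39435957, minus strand): ctagctttCCTTTTCCggttgcggcgccgc
RPS27 (chr1:153990754-153990783, plus strand): ctttcgctCCTTTCCggcggtgacgaccta
RPS27L (chr15:63157456-63157485, minus strand): tgccgagcgcagatcgcttgcagcttgcta
RPS12 (chr6:132814561-132814590, plus strand): gatgaggcCTCTTTCCCTgccgccgccgag
RPL10 (chrX:154398369-154398398, plus strand): aggagcgcCTCTTTCCCTTCggtgtggtga

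The 46 members with such a start and the 17 without it had median log2 fold changes of -0.16 and -0.14 with 400 nM C16, and of -0.03 and -0.08 with PKR siRNA 1. The medians were 0.07 and 0.00 under PKR siRNA 2, and -0.15 and -0.23 at 800 nM C16. These are descriptions, and the differences between them were not tested.

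With PKR siRNA 1, member mRNAs as a whole stayed close to their control level, and a few fell steeply. The share of the library taken by members was 4.69%, 4.69% and 4.51%, against 4.76%, 4.63% and 4.85% with control siRNA, and the groups overlapped. The median log2 fold change of the members was -0.04, with 52 of 79 below 0, against -0.01 for all genes tested. Under limma with Benjamini-Hochberg adjustment over all 10593 genes, 7 members were higher and 20 lower at an adjusted p under 0.05. The background was 21.1% of all genes higher and 23.9% lower, so the 7 lie under the background share and the 20 near it. Under scaling to library totals the counts were 14 higher and 17 lower, and under upper-quartile scaling 16 and 17. The median was -0.08 for large and -0.02 for small subunit members, with 3 higher and 14 lower in the large and 4 higher and 6 lower in the small subunit. Members passing the test with a fold change over 1.5 numbered 5, where 21.1% of all genes did so either way.

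RPL27, a large subunit protein, had the largest fall. The control libraries had 484, 449 and 482 normalized counts of RPL27, those of PKR siRNA 1 had 214, 282 and 242, and those of PKR siRNA 2 had 428, 406 and 472. All 3 PKR siRNA 1 libraries lay below all others (log2 fold change -0.94, SE 0.08, limma adjusted p = 4.18e-18). RPL5, which carries the 5S rRNA into the ribosome together with RPL11, had 683, 692 and 721 normalized counts in the control libraries, 414, 351 and 382 under PKR siRNA 1 and 698, 727 and 715 under PKR siRNA 2. It fell under PKR siRNA 1 (log2 fold change -0.87, SE 0.06, limma adjusted p = 1.33e-20), where the 3 libraries lay below all others, and its value under PKR siRNA 2 was 0.03 (limma adjusted p = 0.723). RPL11 itself fell under PKR siRNA 1 (log2 fold change -0.15, limma adjusted p = 0.0144), a call lost under scaling to library totals (-0.11) or the upper quartile (-0.11) and without the first (-0.13) or the third (-0.13) control library, or lacking PKR siRNA 1 library 1 (-0.13). RPS10, a small subunit protein at the mRNA entry side, had 68.8, 70.9 and 49.3 normalized counts in the control libraries, 35.5, 29.0 and 36.7 under PKR siRNA 1 and 55.7, 57.9 and 56.4 under PKR siRNA 2. Its 3 PKR siRNA 1 libraries lay below all others (log2 fold change -0.87, SE 0.17, limma adjusted p = 1.41e-05), on few reads and with the shared exons named above.

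RPS3, which lines the mRNA entry channel, fell from 1728, 1683 and 1836 normalized counts in the control libraries to 1197, 1146 and 1094 under PKR siRNA 1, and stood at 2066, 1958 and 1972 under PKR siRNA 2. Here the siRNAs moved the same member in opposite directions, with log2 fold changes of -0.61 and 0.19 (limma adjusted p = 6.7e-19 and 0.000471). RPL7A (-0.51), RPS18 (-0.38, named after its value was seen), RPL3 (-0.35) and RPLP0 (-0.34) fell by less. Among the members that rose with PKR siRNA 1, RPLP2 (0.37) and RPL10 (0.33) followed RPS27L.

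The words that pair with the siRNA guide strands were sought in the members, since an siRNA can also lower mRNAs that pair with positions 2 to 8 of its guide. The 7-base word is AGAGATA for PKR siRNA 1 and AAGTAAT for PKR siRNA 2, read on the strand of the mRNA. In the coding sequences of the canonical GENCODE release 44 transcripts, AGAGATA was present in 3 of the 79 members and in 10.6% of 9695 genes tested. These 3 members were RPL27, RPL5 and RPS10, the 3 with the largest falls with PKR siRNA 1. Shown are 19 bases around each word, aligned to the target site of PKR siRNA 1 in EIF2AK2, with the word in capitals and the hg38 position.
EIF2AK2 (chr2:37138311-37138329, minus strand): gcagatacatcAGAGATAa
RPL27 (chr17:43002769-43002783 joined to 43002872-43002875, plus strand): caagtttgaagAGAGATAc
RPL5 (chr1:92833415-92833433, plus strand): ggcctactttaAGAGATAc
RPL5 (chr1:92833632-92833650, plus strand): gtgtgacaaacAGAGATAt
RPS10 (chr6:34421753-34421771, minus strand): gggaagctgacAGAGATAc

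RPL5 held the word at 2 places, and in RPL27 it spans an exon junction. Of the 19 bases aligned to the EIF2AK2 site, 11 were the same in RPL27, 9 and 10 at the places in RPL5, and 10 in RPS10. Counting the exons used for the reads as well, RPL36A also held AGAGATA. Its log2 fold change was -0.02 (limma adjusted p = 0.958), on few reads. The 4 members with the word had a median log2 fold change of -0.87 with PKR siRNA 1, with 3 lower, and the 75 without it had -0.04, with 17 lower and 7 higher. Over all genes tested, those with the word in the coding sequence had a median of -0.15 and those without it 0.00. RPS3, RPL7A, RPS18, RPL3 and RPLP0, which fell as well, held no AGAGATA in coding sequence or counted exons.

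For PKR siRNA 2, AAGTAAT was present in the coding sequence of 1 member, RPS25 (log2 fold change -0.06, limma adjusted p = 0.389), against 6.45% of genes. In the counted exons 9 members held it, against 19.8% of 10590 genes. Of these 9, RPL14 (-0.90), RPL26 (-0.49) and RPS15 (-0.41, named after its value was seen) were lower and RPS3 (0.19) was higher, and the other 5 did not pass the test. The 9 had a median log2 fold change of -0.06 with PKR siRNA 2, and the 70 members without the word had 0.06, with 8 lower and 25 higher. Over all genes tested, those with AAGTAAT in counted exons had a median of -0.16 and those without it 0.02. For the coding sequence these medians were -0.12 and -0.01. The 19 bases around the word lie after the coding span in RPL14 and across its 3′ end in RPL26 and RPS15.
RPL14 (chr3:40462236-40462254, plus strand): gcaatcataaaAAGTAATa
RPL26 (chr17:8377557-8377575, minus strand): atgcaggaataAAGTAATc
RPS15 (chr19:1440446-1440464, plus strand): tcatccctctcAAGTAATg

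Words that pair with the other strand of each siRNA, GTATCTG and TTAAGAT, were in the coding sequence of 1 member each, RPL17 and RPLP0. In counted exons GTATCTG was present in 6 members, among them RPS3 and RPL28, and in 18.8% of genes, and TTAAGAT in RPL15 and RPLP0 and in 19.1% of genes. A word match is a description of the sequence, and its part in these falls was not tested.

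With PKR siRNA 2, more members rose than fell. Members took 5.16%, 4.98% and 5.21% of the normalized counts, and each of these libraries lay above all control siRNA and PKR siRNA 1 libraries. In bulk RNA, more RNA per cell and more cells that express these genes cannot be told apart. The median log2 fold change of the members was small, 0.04, with 33 of 79 below 0, against -0.01 for all genes. By the same test 26 members were higher and 11 lower, where 22.1% of all genes were higher and 25.2% lower. The 26 are 32.9% of the members and the 11 are 13.9%. Under upper-quartile scaling the counts were 34 higher and 8 lower. Both subunits had 13 members higher, with 7 lower in the large and 4 lower in the small subunit, and medians of 0.03 and 0.09. The 5 members past a fold change of 1.5 (3 higher, 2 lower) compare with 23.5% of all genes.

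**Figure D2:**
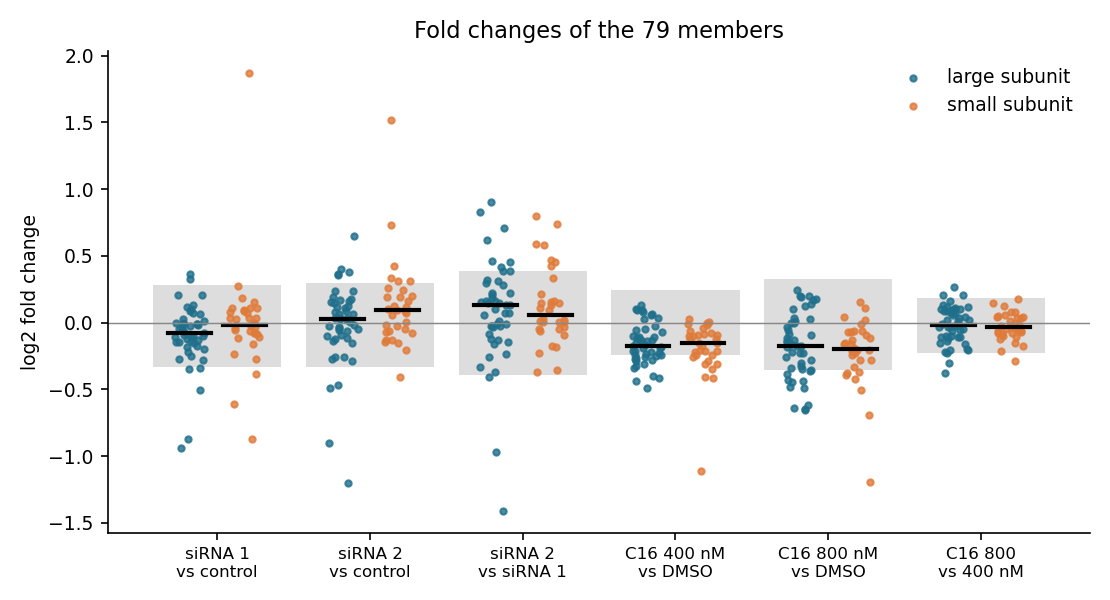
Log2 fold change of each member in 6 comparisons, with large subunit members at the left and small subunit members at the right of each column, black bars for their medians and grey boxes for the quartiles of all genes tested. Members lie closer together than all genes, and with 400 nM and 800 nM C16 both subunits lie mostly below 0.

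RPS12, a protein of the small subunit beak, had the largest rise after RPS27L. It had 845, 858 and 900 normalized counts in the control libraries, 1014, 973 and 912 under PKR siRNA 1, and 1485, 1380 and 1464 under PKR siRNA 2. All PKR siRNA 2 libraries lay above the rest (log2 fold change 0.73, SE 0.05, limma adjusted p = 6.36e-21). RPL10, which joins the large subunit late and lies by the peptidyl transferase centre, had 1582, 1640 and 1654 normalized counts in the control libraries, 2040, 2077 and 2010 under PKR siRNA 1 and 2585, 2457 and 2609 under PKR siRNA 2. The 3 groups did not overlap, with log2 fold changes of 0.33 and 0.65 (limma adjusted p = 1.24e-09 and 2.64e-22).

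The proteins of the stalk, which recruits elongation factors, rose together with PKR siRNA 2. All 4 stalk members were higher, RPLP1 by 0.40 on the log2 scale, RPLP0 by 0.37, RPLP2 by 0.36 and RPL12, at the stalk base, by 0.18. RPLP0 had 2989, 2932 and 3030 normalized counts with control siRNA and 3802, 3809 and 3931 with PKR siRNA 2. With PKR siRNA 1 the stalk members differed among themselves. RPLP0 stood at 2353, 2449 and 2269 and RPL12 fell (log2 fold change -0.28), whereas RPLP2 rose (0.37) and RPLP1 had 0.09 (limma adjusted p = 0.188).

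RPL14, a large subunit protein, went from 655, 640 and 666 normalized counts in the control libraries to 323, 342 and 384 under PKR siRNA 2, and stood at 693, 664 and 699 under PKR siRNA 1. The PKR siRNA 2 libraries lay below all others (log2 fold change -0.90, SE 0.06, limma adjusted p = 3.88e-21). RPL39L, a paralogue of the exit tunnel protein RPL39 that is best known from testis, had 31.8, 51.6 and 48.4 normalized counts in the control libraries, 47.8, 49.9 and 52.1 under PKR siRNA 1 and 12.9, 20.4 and 22.6 under PKR siRNA 2. This was the largest fall of any member with that siRNA (log2 fold change -1.20, SE 0.21, limma adjusted p = 1.24e-06), on few reads. RPL39, its abundant counterpart, had a log2 fold change of 0.01 (limma adjusted p = 0.947).

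**Figure D3:**
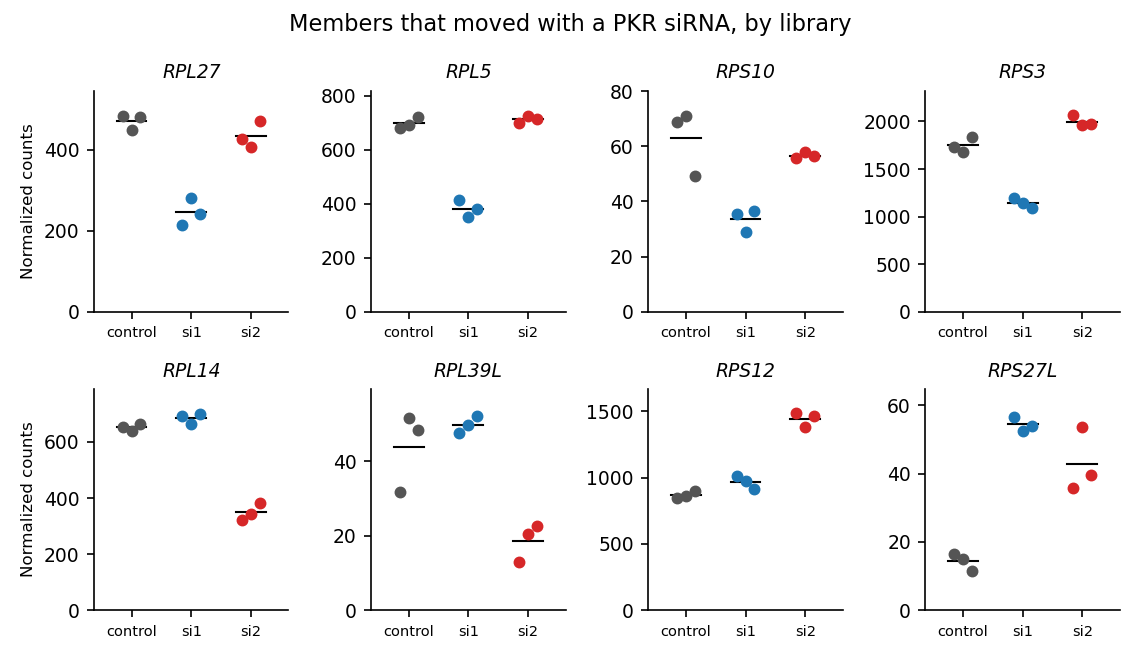
Normalized counts of 8 members in each library of the siRNA table (control, PKR siRNA 1 as si1, PKR siRNA 2 as si2), with a line at each group mean and axes from 0. RPL27, RPL5, RPS10 and RPS3 are low with PKR siRNA 1, RPL14 and RPL39L with PKR siRNA 2, RPS12 is high with PKR siRNA 2, and RPS27L is high with both.

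RPS27L had the largest rise with either siRNA. This paralogue of RPS27 is known as a target of p53. It had 16.4, 15.0 and 11.4 normalized counts in the control libraries, 56.7, 52.6 and 54.0 under PKR siRNA 1, and 35.8, 53.6 and 39.5 under PKR siRNA 2. Each PKR siRNA library lay above every control library, with log2 fold changes of 1.87 and 1.52 (SE 0.21 each, limma adjusted p = 2.85e-12 and 2.55e-09). Both comparisons use the same control libraries. RPS27 had 617, 635 and 630 normalized counts in the control libraries, 568, 618 and 557 under PKR siRNA 1 and 790, 741 and 813 under PKR siRNA 2, with log2 fold changes of -0.11 (limma adjusted p = 0.119) and 0.32 (limma adjusted p = 6.97e-06).

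Set directly against each other, the siRNAs differed at many members. With PKR siRNA 2 relative to PKR siRNA 1, 35 members were higher and 13 lower, where 27.7% of all genes were higher and 29.3% lower. The median log2 fold change was 0.10, against -0.01 over all genes, 0.13 for the large and 0.06 for the small subunit, with 21 higher and 9 lower in the large and 14 higher and 4 lower in the small subunit. A fold change over 1.5 was reached by 9 members, 7 higher and 2 lower, against 31.7% of all genes. Besides RPL5, RPL27, RPS3 and RPS10, those higher with PKR siRNA 2 were RPLP0 (0.71), RPL7A (0.62) and RPS2 (0.59). RPL39L (-1.41) and RPL14 (-0.97) were lower.

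With 400 nM C16 the members shifted downward together. Their share of the normalized counts was 4.98%, 5.10% and 4.99%, against 5.89%, 5.61% and 5.18% with DMSO, and each 400 nM library lay below each DMSO library, closest to the third. RPS16 supplied a larger part of the members' sum with 400 nM C16 (19.2% ± 0.221) than with DMSO (17.5% ± 0.0934, SD, n = 3 each). The median log2 fold change of the members was -0.17, with 68 of 79 below 0, against 0.00 for all 9963 genes tested in this table. Here 0 members were higher and 36 lower by limma at an adjusted p under 0.05, with 0 and 43 at an unadjusted p under 0.05, where 14.6% of all genes were higher and 11.9% lower. The 36 are 45.6% of the members. With edgeR and DESeq2 the higher members also numbered 0. Without the first or the second DMSO library 23 were lower, and without the third DMSO library, which stands nearer to the treated libraries, 43. Large and small subunit members had medians of -0.18 and -0.15 and 23 and 13 lower members. Single changes were small. RPS27L alone passed a fold change of 1.5, as did 12.5% of all genes.

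With 800 nM C16 the median log2 fold change was -0.18, with 63 of 79 members below 0, against 0.00 for all genes. The libraries were less alike, with member shares of 4.77%, 5.28% and 4.96%, and the second of them lay above the third DMSO library, so the groups overlapped. By the same test 3 members were higher and 41 lower (51.9% of the members), where 22.3% of all genes were higher and 22.6% lower. Leaving out each library in turn gave 32 to 48 lower members. The median was -0.17 for the large subunit, with 2 higher and 22 lower, and -0.20 for the small subunit, with 1 higher and 19 lower. A fold change over 1.5 was passed by 6 members, all lower, against 25.7% of all genes either way.

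**Figure D4:**
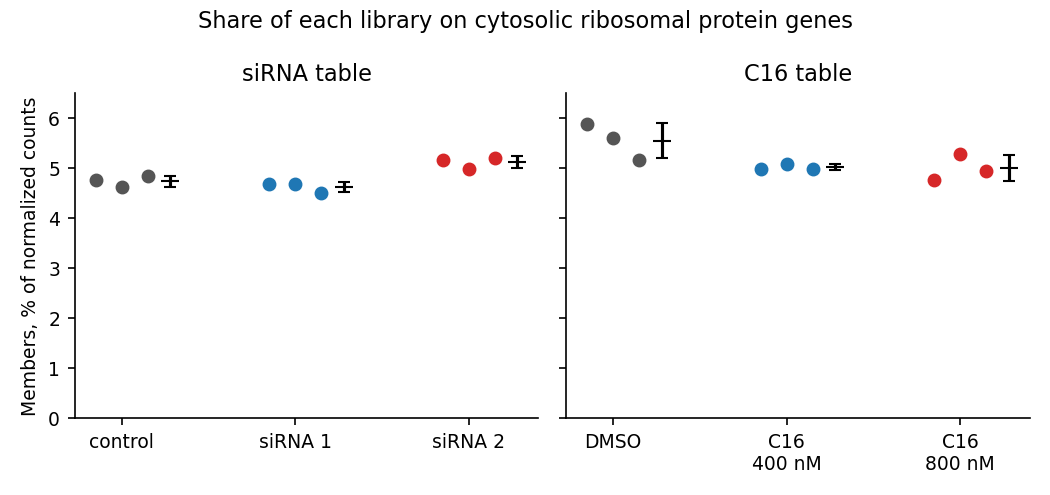
Percent of all normalized counts in a library that fell on the 79 members, by group (points, libraries; bars, mean ± SD of 3), with the vertical axis from 0. PKR siRNA 2 libraries lie above the other siRNA libraries, and the 400 nM C16 libraries lie below the DMSO libraries.

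RPS27, the abundant zinc finger protein of the small subunit, had 628, 499 and 448 normalized counts with DMSO, 395, 409 and 373 with 400 nM and 305, 358 and 304 with 800 nM C16. The treated libraries lay below all DMSO libraries and the 3 groups did not overlap, with log2 fold changes of -0.40 and -0.69 (limma adjusted p = 0.000193 and 1.03e-09). RPS27L, its paralogue, went from 49.6, 56.2 and 38.1 normalized counts to 22.3, 19.6 and 22.3 and to 16.1, 21.9 and 22.9. Its log2 fold changes were -1.11 at 400 nM and -1.20 at 800 nM (SE 0.22 each, limma adjusted p = 9.42e-05 and 1.21e-05), opposite in sign to its values with the PKR siRNAs in the other table. Of the 6 paralogue members tested, 4 were lower at each dose, where 11.9% and 22.6% of all genes were. With PKR siRNA 1, 2 were higher and 1 lower, near the 21.1% and 23.9% of all genes, and with PKR siRNA 2, 3 were higher and 1 lower, against 22.1% and 25.2%.

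RPL10 had 1263, 1220 and 1224 normalized counts with DMSO, 919, 956 and 906 with 400 nM and 706, 857 and 815 with 800 nM C16, with no overlap between groups. It fell at both doses (log2 fold changes -0.41 and -0.64, limma adjusted p = 6.39e-07 and 9.34e-13), whereas it had risen with both PKR siRNAs. RPL23, at the subunit interface where the factor eIF6 binds, went from 355, 320 and 323 to 267, 270 and 251 and to 182, 217 and 243 normalized counts. RPL28 went from 601, 595 and 576 to 546, 518 and 438 and to 366, 397 and 390. At 800 nM the log2 fold changes were -0.64 for RPL23 and -0.62 for RPL28 (limma adjusted p = 2.78e-08 and 5.54e-10). RPL9 had its larger fall at 400 nM, from 471, 468 and 383 to 302, 306 and 331 normalized counts (log2 fold change -0.49, limma adjusted p = 3.93e-06), and stood at 314, 351 and 345 with 800 nM.

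**Figure D5:**
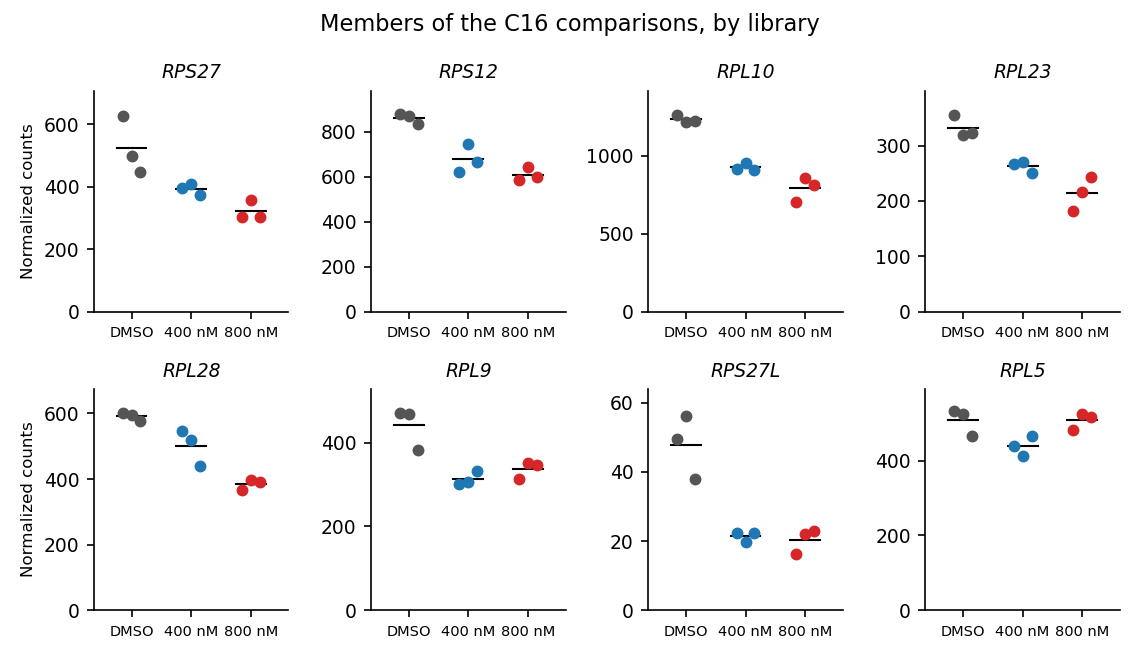
Normalized counts of 8 members in each library of the C16 table, with a line at each group mean and axes from 0. RPS27, RPL10, RPL23 and RPL28 are lower at 400 nM than with DMSO and lower again at 800 nM, RPS12, RPL9 and RPS27L are low at both doses, and RPL5 with 800 nM overlaps DMSO.

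Members were also counted by functional group, where the share lower among all 79 members was 45.6% at 400 nM and 51.9% at 800 nM, and among all genes 11.9% and 22.6%. RPS6, the subunit protein phosphorylated downstream of mTOR, fell with 400 nM C16 (log2 fold change -0.31, limma adjusted p = 0.00265). At 800 nM it had -0.23 (limma adjusted p = 0.0181), a call lost without the second DMSO library (-0.19) or the third 800 nM library (-0.17). Of the 3 members at the peptidyl transferase centre, RPL3 (-0.26 and -0.36 at 400 and 800 nM) and RPL10 fell at both doses, and RPL8 was higher at 800 nM (0.19), a call lost without the second 800 nM library (0.14). Of the 4 stalk members RPLP0 was lower at both doses (-0.15 and -0.35), the former call being lost with DESeq2, with no filter and without the first or second DMSO or the first or the third 400 nM library (-0.17 to -0.12), and the other 3 did not pass. RPL5 and RPL11 were both lower at 400 nM (-0.21 each), calls that were lost for both without the first or the second DMSO library or the first 400 nM library (-0.21 to -0.16), and neither passed at 800 nM. The 8 members of the exit tunnel and its rim had 2 lower at 400 nM and 3 at 800 nM, the 4 of the mRNA entry and decoding region 1 and 2, and the 5 of the platform and mRNA exit 1 and 4. The other members higher at 800 nM were RPS7 (0.16, named after its value was seen) and RPL38 (0.20), whose call was lost under upper-quartile scaling (0.17) and without the second 800 nM library (0.17). RPL17 and RPL36A, both with few reads, had the other largest positive values at 800 nM (0.25 and 0.20) and did not pass the test.

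The doses differed at few members. With 800 nM relative to 400 nM C16 the median log2 fold change was -0.03 and turned to 0.01 under scaling to library totals and to 0.03 without the first 800 nM library. Only 1 member, RPL5 (0.21), was higher and 7 were lower, where 5.09% of all genes were higher, 9.18% lower and 5.09% passed a fold change of 1.5 either way. Under median-of-ratios scaling the counts were 3 and 6, under scaling to library totals 3 and 5 and under upper-quartile scaling 0 and 7. The large subunit had 1 higher and 6 lower and the small subunit 1 lower, with medians of -0.02 and -0.03. RPL28 (log2 fold change -0.37, SE 0.07, limma adjusted p = 0.000272) differed most. RPL23 (-0.30), RPS27 (-0.29), RPL10 (-0.23), RPLP0 (-0.20) and RPL23A (-0.20, named after its value was seen) were also lower. As each library was left out, 1 to 7 members were lower, with 1 without the second 400 nM library, 2 without the first 800 nM library, and 4 without the first 400 nM or the third 800 nM library. The call of RPL5 was lost without the first or second 400 nM library or the second or the third 800 nM library, at log2 fold changes of 0.16 to 0.21.

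Fold changes were more alike among members than among genes at large in every comparison. The interquartile range of the log2 fold change over members was 0.21 for PKR siRNA 1, 0.26 for PKR siRNA 2, 0.18 for 400 nM C16 and 0.30 for 800 nM C16, against 0.61, 0.62, 0.49 and 0.69 over all genes. The genes at large include many with few reads, whose fold changes scatter more. Of the 79 members, 16 passed the test with a fold change over 1.5 in at least 1 of the 6 comparisons, and 10 passed at an adjusted p under 0.05 in none. In single comparisons 0% to 11.4% of members passed both thresholds, against 5.09% to 31.7% of all genes. The share of all genes over the 6 comparisons together was not counted.

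Lists of genes with related roles are given by their counts, to be read against the shares of all genes above. Ribosome assembly factors, which process rRNA and fold pre-ribosomes, had a median log2 fold change of 0.37 with 800 nM C16, with 27 of 37 higher, and of 0.21 with 400 nM C16, with 15 higher. The other assembly factors did not pass in these comparisons. SBDS, which with EFL1 releases eIF6 from the new large subunit, rose by 0.99 at 800 nM, and EIF6 by 0.87. At 400 nM C16 they rose by 0.65 and 0.82. With PKR siRNA 1, 18 of 37 assembly factors were higher and 4 lower (median 0.18), with DKC1, the pseudouridine synthase, at 0.73. With PKR siRNA 2, 2 were higher and 20 lower (median -0.20), with NOP14 at -1.18 and EIF6 at -0.81. DKC1 was higher with PKR siRNA 2 as well (0.67), and EIF6 was lower with PKR siRNA 1 as well (-0.34), whereas NOP14 was higher there (0.33). The 76 mitochondrial ribosomal protein genes had medians of 0.16 with PKR siRNA 1 (23 higher, 6 lower), -0.03 under PKR siRNA 2 (9 and 16), -0.06 at 400 nM C16 (8 and 9) and 0.00 at 800 nM C16 (16 and 9).

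Other mRNAs known for a terminal oligopyrimidine tract, 19 in all, had 9 higher and 2 lower under PKR siRNA 1, 5 and 4 under PKR siRNA 2, 2 and 6 at 400 nM C16 and 4 and 6 at 800 nM. EEF1A1, the elongation factor that delivers tRNA, rose with PKR siRNA 2 (0.37) and fell with 400 nM (-0.39) and 800 nM C16 (-0.60). TPT1 rose with PKR siRNA 1 (0.50) and PKR siRNA 2 (0.30), and fell with 400 nM (-0.54) and 800 nM C16 (-0.465). Ribosome components outside the name rule include FAU and GNB2L1, the RACK1 gene. GNB2L1 fell with PKR siRNA 1 (-0.49) and PKR siRNA 2 (-0.14). FAU rose with PKR siRNA 1 (0.285) and 800 nM C16 (0.33). Of the 4 paralogues outside the rule, 1 was higher and 0 lower under PKR siRNA 1, and 1 and 2 under PKR siRNA 2. The counts were 1 and 0 at 400 nM C16 and 2 and 0 at 800 nM. With PKR siRNA 2, RPL36AL was lower (-0.35) and RPL7L1 higher (0.24). RPL26L1 rose with PKR siRNA 1 (0.41, limma adjusted p = 0.0458) and fell with PKR siRNA 2 (-0.83). It rose with 400 nM (0.69) and 800 nM C16 (0.79). RPL22L1 rose with 800 nM C16 (0.97), on few reads, with means of 13.9 normalized counts with DMSO and 28.5 with 800 nM. Of the 14 RNA polymerase I genes, 3 were higher and 2 lower under PKR siRNA 1, 2 and 1 under PKR siRNA 2, 2 and 1 at 400 nM C16 and 5 and 1 at 800 nM. Of the 13 regulators of these mRNAs, 3 were higher and 4 lower under PKR siRNA 1, 2 and 4 under PKR siRNA 2, and 2 and 2 at 800 nM C16. Among them MYC rose with PKR siRNA 1 (1.04) and PKR siRNA 2 (0.56), and EIF4EBP2 fell with both (-0.40 and -0.93). LARP1 also fell with both (-0.20 and -0.35). EIF4EBP1, a repressor of cap-dependent translation, fell with PKR siRNA 2 (-0.67) and rose with 400 nM (0.88) and 800 nM C16 (0.70), on few reads.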

How the data were processed

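RNA-seq of 18 PANC-1 libraries was used, 9 in each of 2 tables. Paired reads of 75 bases were aligned by the authors to hg38 (TopHat), summarized per gene (featureCounts) and scaled by TMM in TCC, and the deposited values are this normalized signal, that is reads rescaled by 1 factor for each library. Annotation and strand setting are not given in the sources used here. Whole reads were recovered in 100% of values within a tolerance of 0.01. All 18 value columns were mapped.

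Genes with a mean of at least 10 in a table were tested with limma 3.58.1 (R 4.3.3; lmFit, eBayes with a trend, two-sided) on log2 (value + 1) with all 9 libraries of the table, and p-values were adjusted by Benjamini-Hochberg over all of them. This log2 scale makes fold changes of genes with few reads too small. The labelled run cannot be told apart from siRNA or C16, so groups were compared within a table. Depth was 894145 to 1873906 reads on genes per library, which sets the counting error of genes with few reads. The scripts were tested on simulated data. Alternatives changed the pseudocount (0.5 or 5), the filter (none, or a mean of 30) or the scaling, fitted the compared groups alone, added a replicate block, used edgeR 4.0.16 by quasi-likelihood or DESeq2 1.42.0 with recovered reads, or left out each library in turn.

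Members named are the 3 largest and 3 smallest fold changes of each comparison except 800 nM against 400 nM, all with a fold change over 1.5 and an adjusted p under 0.05 in any comparison, the 3 highest and 3 lowest per kilobase with control siRNA, and the members of the stalk, 5S particle, peptidyl transferase centre, kinase target and paralogue lists, 32 in all. Members and lists were chosen with earlier results of these data known. Start sites came from RefSeq (GRCh38.p14), where 16 members had no entry, coding sequences from GENCODE release 44 on hg38, and the siRNA words from the sequences in the study's methods. Some results are not reported here.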

Additional observations from a re-analysis of the deposited data

Results flagged for a closer look

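For 9 members the effect of PKR siRNA 2 differed from that of PKR siRNA 1 by over 1.5-fold in the direct test (limma, Benjamini-Hochberg adjusted). The difference in log2 fold change, PKR siRNA 2 minus PKR siRNA 1, was 0.90 for RPL5 (0.03 against -0.87, adjusted p = 9.11e-22), 0.83 for RPL27 (-0.12 against -0.94, adjusted p = 8.28e-16) and 0.74 for RPS10 (-0.13 against -0.87, adjusted p = 0.000138). It was 0.80 for RPS3 (0.19 against -0.61, adjusted p = 1.19e-25), 0.71 for RPLP0 (0.37 against -0.34, adjusted p = 1.47e-26), 0.62 for RPL7A (0.11 against -0.51, adjusted p = 9.95e-17) and 0.59 for RPS2 (0.32 against -0.27, adjusted p = 6.38e-22). In the other direction it was -0.97 for RPL14 (-0.90 against 0.07, adjusted p = 4.96e-23) and -1.41 for RPL39L (-1.20 against 0.21, adjusted p = 1.6e-08). EIF2AK2 itself had 11.1 ± 2.19 normalized counts under PKR siRNA 1 and 8.65 ± 0.726 under PKR siRNA 2 (SD, n = 3). RPL5, RPL27 and RPS10 hold the 7-base word of PKR siRNA 1 in their coding sequence, and RPL14 and RPS3 hold that of PKR siRNA 2 in their counted exons.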

How the results depend on the processing

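Of the summary values recomputed under the alternatives, 37 moved further and 371 moved by less than the spread between libraries or, for counts, stayed within 1.5 times. A member median changed sign for 800 nM against 400 nM C16, to 0.012 under scaling to library totals and 0.031 without the first 800 nM library. Of the values of single members, 83 lost the call, 0 reversed and 1625 kept direction and call. With PKR siRNA 1, 14 members were higher under scaling to library totals, 16 under upper-quartile scaling and 11 with edgeR, and the median log2 fold change was -0.012 and -0.0079 under these scalings. The median with PKR siRNA 2 was 0.083 under upper-quartile scaling, and that of PKR siRNA 2 against PKR siRNA 1 was 0.069 under scaling to library totals. With 800 nM C16, 5 and 1 were higher under these scalings. For 800 nM against 400 nM C16, 0 members were higher with no filter, upper-quartile scaling and DESeq2, and 3 with median-of-ratios (with or without the members), library totals, only the groups compared and edgeR, and DESeq2 found 2 lower. With each library left out, the median with PKR siRNA 1 ranged from -0.080 to -0.025, lower members with 400 nM from 23 to 43, higher members with 800 nM from 0 (without the second 800 nM library) to 6 (without the first DMSO library), and for 800 nM against 400 nM higher members from 0 to 3 and lower members from 1 to 7. Large minus small subunit medians ranged from 0.029 to 0.069 for PKR siRNA 2 against PKR siRNA 1 and from 0.015 to 0.053 for 800 nM against 400 nM. Samples with the same number did not deviate together (correlations from -0.05 to 0.03), so the numbers do not pair them, and with the replicate block the higher and lower members were 7 and 20, 26 and 11, 35 and 13, 0 and 36, 4 and 41, and 1 and 7 in the order of the comparisons above, with medians as reported. The depth leaves RPS10, RPL17, RPL36A, RPL39L and RPS27L, with few reads, imprecise.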
